A study of Homo sapiens with 10 samples.

Results

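The plasminogen activator system was followed through 7 genes chosen by name from the 58735 genes of the deposited table: the activators PLAT and PLAU, the receptor PLAUR, the inhibitors SERPINE2 and SERPINB2, and the cofactors S100A10 and ANXA2. These 7 are not the whole system, and counts over them describe them alone. They were measured by bulk RNA sequencing in CH157-MN, a cell line established from a human meningioma. In the PBS group, 5 libraries came from cells given phosphate-buffered saline. In the ADC group, 5 libraries came from cells given 100 nM of a humanised antibody-drug conjugate and collected on day 3. The conjugate joins an antibody against the somatostatin receptor SSTR2 to monomethyl auristatin F (MMAF), a drug that blocks tubulin polymerisation. All 10 libraries share the 1 line, and each comparison below is ADC against PBS. The day of collection is labelled for ADC only.

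Plasmin is a broad serine protease made from circulating plasminogen by 2 activators, tissue-type (tPA, gene PLAT) and urokinase-type (uPA, gene PLAU). Urokinase works at the cell surface when held by its receptor uPAR (gene PLAUR), while a complex of annexin A2 and its S100 partner binds tPA and plasminogen on the outer membrane. Serpins trap the activators, and endocytic receptors clear the trapped enzyme. In meningioma, urokinase and its receptor have been studied in relation to invasion.

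Both activators rose after ADC, PLAT 2.83-fold and PLAU 1.45-fold, while the urokinase receptor PLAUR did not pass the test. Both inhibitors rose as well, SERPINB2 2.04-fold from a very low level and SERPINE2 1.2-fold. The cofactor S100A10 rose 1.28-fold and its partner ANXA2 rose 1.07-fold. Of the 7 genes, 6 were called higher and 0 lower at an adjusted p below 0.05 by edgeR's quasi-likelihood test, with a median log2 fold change of 0.36. Of all 14504 tested genes, 20.8% were called, 10.8% as higher and 10% as lower, and the median log2 fold change was -0.00217. The 7 genes were chosen with earlier results of these data known, so these shares are background and no test of an excess. With scaling to library size alone the split over all genes was 1835 higher and 1063 lower, against 1562 and 1456 with TMM scaling, and the 7 genes kept their calls. In 3 of the 7 genes (PLAT, PLAU and S100A10) every ADC library lay above every PBS library, which held for 7.29% of tested genes. Without PBS replicate 1, or without PBS replicate 3, 4 of the 7 genes were called, since SERPINE2 and ANXA2 lost their calls.

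**Figure D1:**
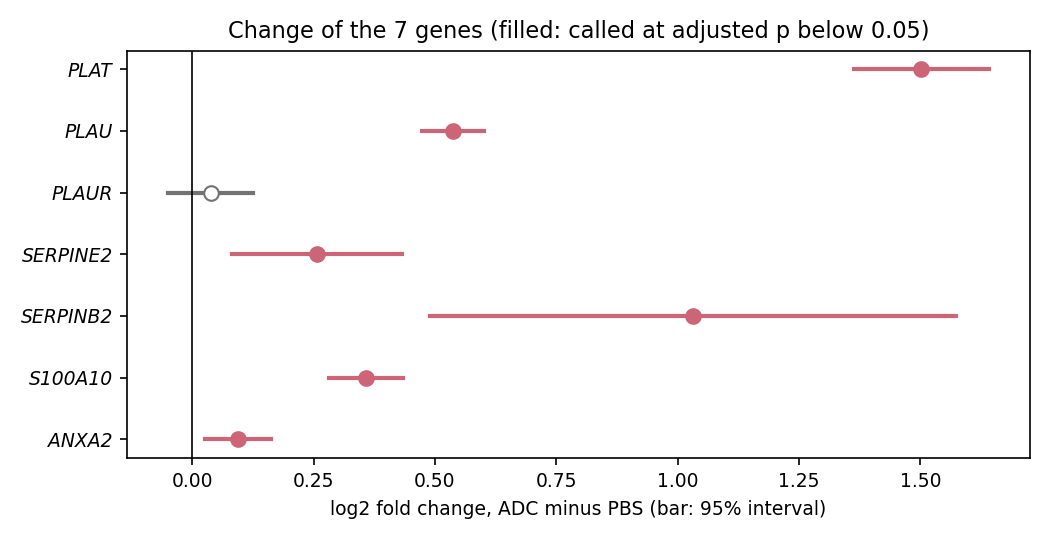
Log2 fold change (ADC minus PBS, horizontal axis) of each of the 7 genes, with bars for the 95% interval from edgeR; filled points were called at an adjusted p below 0.05 and the open point was not. PLAT lies at 1.50, SERPINB2 has the widest interval (0.49 to 1.57), and only the interval of PLAUR includes 0.

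The libraries held 28262162 to 36463724 counts, and 3 counts, the limit that an observed 0 allows, were worth 0.0823 to 0.106 CPM (CPM, counts scaled to a common library total). The labels do not say that replicates were separate cultures, so p-values speak only to the spread among these libraries, and that spread may be technical. Of 10 meningioma and arachnoid markers, PGR, S100B and SLC47A1 had 0 counts in every library, and DSP, CDH1 and PTGDS had at most 4. VIM, which was not called, made up most of the summed level of 3389 to 3669 CPM in PBS and 3600 to 3738 CPM in ADC. Of the 4 tested, only CDH2 was called, falling from 125 to 115 CPM (log2 fold change -0.12, edgeR adjusted p = 0.017). That call was lost under 2 of 18 alternatives. SSTR2, to which the antibody binds, was near the floor, with between 3 and 22 counts in a PBS library and between 10 and 20 in an ADC library. Of 13 leukocyte markers 8 had 0 counts throughout, and the list summed to 0.545 to 2.64 CPM in PBS and 2.02 to 3.01 in ADC. The 10 endothelial markers summed to 10.6 to 11.8 CPM in PBS and 13.1 to 14.8 in ADC: of the 5 tested, only PECAM1 was called, rising from 0.576 to 1.98 CPM. TIE1 made up most of the sum at 8.27 and 9.43 CPM without a call, and KDR (1.51 and 1.49 CPM, log2 fold change -0.02), ESAM (0.400 and 0.312 CPM, -0.34) and VWF (0.301 and 0.396 CPM, 0.38) were not called either. EMCN was at 0, and CDH5 had 0 counts in PBS and between 2 and 7 in ADC. Endothelial cells also make tPA and urokinase. The labels name the CH157-MN line alone, and the part of these markers in the results was not tested. In bulk RNA, fewer cells of a type and less RNA per cell cannot be told apart.

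PLAT encodes tissue-type plasminogen activator, the fibrin-dependent activator of plasminogen (ENSG00000104368, hg38 chromosome 8, 42175233 to 42207724, minus strand). Its level in PBS replicates 1 to 5 was 18.9, 19.2, 22.8, 17.6 and 19.0 CPM. In ADC replicates 1 to 5 it was 62.8, 52.2, 55.9, 49.5 and 55.6 CPM. The groups were far apart: the lowest ADC library was 2.17 times the highest PBS library. The mean went from 19.5 ± 1.92 to 55.2 ± 5.0 CPM (SD, n = 5), on 499 to 668 counts per PBS library and 1440 to 2172 per ADC library. The log2 fold change was 1.50 (SE 0.07, 95% interval 1.36 to 1.64, adjusted p = 1.7e-16). Ranked from the most raised gene down, PLAT stood at 54 of 14504 tested genes.

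PLAU encodes urokinase, the activator that works at the cell surface (ENSG00000122861, chromosome 10, 73909177 to 73917497, plus strand). In PBS replicates 1 to 5 it stood at 473, 485, 474, 479 and 471 CPM. In ADC replicates 1 to 5 it was 717, 663, 677, 672 and 729 CPM. The PBS libraries lay within a narrow band, and the lowest ADC library was 1.37 times the highest of them. The mean went from 476 ± 5.70 to 692 ± 29.6 CPM (SD, n = 5), a log2 fold change of 0.54 (SE 0.03, 95% interval 0.47 to 0.60, adjusted p = 4.2e-14). By rank of fold change PLAU stood at 817 of 14504. Its exons share 31.1% of their bases with C10orf55 on the other strand, and the strand setting of the counting is not given in the sources used here, so reads of the shared bases cannot be told apart. C10orf55 itself reached only 36 to 81 counts in the PBS libraries, and 42 to 63 in those of ADC, against 13558 to 24810 for PLAU.

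PLAUR encodes the membrane-anchored receptor that holds urokinase (ENSG00000011422, chromosome 19, 43646095 to 43670547, minus strand). Its level in PBS replicates 1 to 5 was 124, 147, 125, 132 and 133 CPM, and in ADC replicates 128, 144, 134, 132 and 141 CPM. The groups overlapped through most of their range, and the highest library of all was PBS replicate 2. The means were 132 ± 9.13 and 136 ± 6.43 CPM (SD, n = 5), with a log2 fold change of 0.04 (SE 0.04, adjusted p = 0.59). The 95% interval of -0.05 to 0.13 corresponds to a fold of 0.966 to 1.09, so the receptor's interval lay below that of its ligand gene PLAU, which began at 1.39-fold. The ratio of PLAU to PLAUR, both in CPM per kilobase, went from 5.46 ± 0.314 to 7.71 ± 0.519 (SD, n = 5). Each ADC library had a higher ratio than any PBS library, the ranges being 4.98 to 5.76 and 6.98 to 8.44. The size of this ratio depends on the length taken for each gene. With the median length of coding transcripts, PLAU stood at 205 and PLAUR at 178 CPM per kilobase in PBS.

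SERPINE2 encodes protease nexin 1, a secreted serpin that inhibits thrombin, urokinase and tPA (ENSG00000135919, chromosome 2, 223975112 to 224039319, minus strand). PBS replicates 1 to 5 held 13.1, 17.3, 15.6, 17.5 and 18.0 CPM, and ADC replicates held 21.5, 19.1, 17.5, 19.7 and 19.6 CPM. The groups touched, with ADC replicate 3 inside the PBS range, and PBS replicate 1 was the lowest library of all. The mean went from 16.3 ± 2.02 to 19.5 ± 1.45 CPM (SD, n = 5), a log2 fold change of 0.26 (SE 0.09, 95% interval 0.08 to 0.43, adjusted p = 0.03). This call rested on single libraries: the adjusted p was 0.11 when PBS replicate 1 was left out (log2 fold change 0.19), 0.066 for PBS replicate 3 (0.24) and 0.096 for ADC replicate 1 (0.22).

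SERPINB2 encodes plasminogen activator inhibitor 2, a serpin that stays largely inside the cell (ENSG00000197632, chromosome 18, 63871692 to 63903890, plus strand). It was the lowest of the 7 genes, with 21 to 54 counts per PBS library and 42 to 97 per ADC library. Its level in PBS replicates 1 to 5 was 1.61, 0.622, 1.60, 0.849 and 1.32 CPM, and in ADC replicates 2.78, 2.49, 2.84, 1.44 and 2.73 CPM. ADC replicate 4 lay inside the PBS range and the other ADC libraries lay above it. The mean went from 1.20 ± 0.447 to 2.46 ± 0.581 CPM (SD, n = 5), a log2 fold change of 1.03 (SE 0.27, 95% interval 0.49 to 1.57, adjusted p = 0.0052). Of its exonic bases 19.9% are shared with SERPINB10 on the same strand, which had 0 counts in every library.

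S100A10 encodes p11, the S100 protein that pairs with annexin A2 and carries the site for plasminogen (ENSG00000197747, chromosome 1, 151982915 to 151994390, minus strand). Across PBS replicates 1 to 5 it was measured at 106, 113, 109, 111 and 113 CPM, and in ADC replicates 144, 139, 139, 134 and 150.2 CPM. All ADC libraries lay above all PBS libraries, the lowest at 1.19 times the highest of PBS. The mean went from 110.3 ± 3.05 to 141 ± 6.04 CPM (SD, n = 5), a log2 fold change of 0.36 (SE 0.04, 95% interval 0.28 to 0.43, adjusted p = 1.6e-08).

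ANXA2 encodes annexin A2, the membrane-binding partner in that complex (ENSG00000182718, chromosome 15, 60347134 to 60402883, minus strand). Its level in PBS replicates 1 to 5 was 1943, 2124, 2048, 2005 and 1997 CPM, and in ADC replicates 2129, 2222, 2164, 1970.4 and 2319.6 CPM. The groups overlapped, with ADC replicate 4 below all PBS libraries but replicate 1. The mean went from 2023 ± 67.4 to 2161 ± 129 CPM (SD, n = 5), a log2 fold change of 0.10 (SE 0.03, 95% interval 0.03 to 0.16, adjusted p = 0.042). The call was lost without any 1 of 7 libraries, namely PBS replicate 1 (adjusted p = 0.11), 3 (0.056), 4 (0.079) or 5 (0.092) and ADC replicate 2 (0.093), 3 (0.07) or 5 (0.12). Of the distinct 75-base stretches pooled over all 38 annotated ANXA2 transcripts, 4.1% occur unchanged in the pseudogene ANXA2P2, so reads from them are uncertain. This is a share of annotated sequence, and the share of ANXA2 reads that it touches was not measured. ANXA2P2 had means of 120 and 128 CPM and a log2 fold change of 0.10 (adjusted p = 0.065). The ratio of S100A10 to ANXA2, both in CPM per kilobase, went from 0.312 ± 0.00759 to 0.375 ± 0.0137 (SD, n = 5), with every ADC library above every PBS library. The size of this ratio also depends on gene length. With the median length of coding transcripts, S100A10 stood at 121 and ANXA2 at 3024 CPM per kilobase in PBS.

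**Figure D2:**
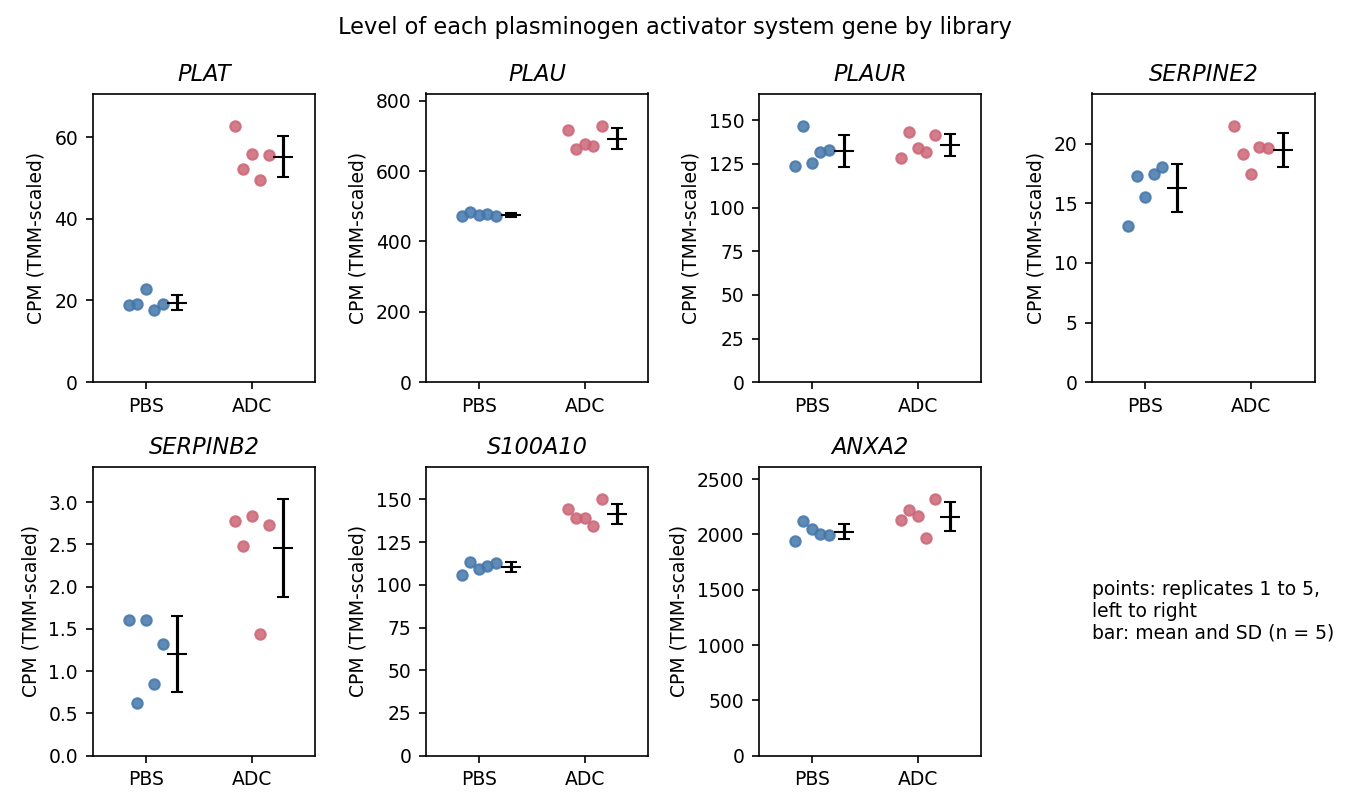
Level of each gene in TMM-scaled CPM (vertical axis, from 0) in the 5 PBS and 5 ADC libraries, in the order of their replicate numbers from left to right, with the mean and SD as a bar. PLAT, PLAU and S100A10 show 2 separate bands, PLAUR and ANXA2 overlap, and SERPINB2 has 1 low ADC library at 1.44 CPM.

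The windows around RefSeq transcription starts are shown for 4 genes because they differ in the motifs they hold while their genes moved by different amounts. RefSeq (build GRCh38.p14) gave 8 windows of 300 bases, from 250 before to 50 after a start, for 6 of the 7 genes: SERPINE2 and PLAU have 2 each, S100A10, ANXA2, SERPINB2 and PLAUR have 1 each, and PLAT was not matched. Both strands were searched for AP-1 (TGANTCA), the TATA box (TATAAA), the GC box (GGGCGG) and the NF-kB consensus. Capitals mark matches to AP-1, TATA or NF-kB.
PLAU, chr10:73910882-73911181, plus strand: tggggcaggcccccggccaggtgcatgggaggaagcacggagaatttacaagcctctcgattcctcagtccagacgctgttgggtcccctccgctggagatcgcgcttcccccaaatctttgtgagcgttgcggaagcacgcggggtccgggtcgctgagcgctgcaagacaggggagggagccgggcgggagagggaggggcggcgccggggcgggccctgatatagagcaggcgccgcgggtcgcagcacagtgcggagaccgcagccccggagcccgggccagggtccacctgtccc
PLAUR, chr19:43670120-43670419, minus strand: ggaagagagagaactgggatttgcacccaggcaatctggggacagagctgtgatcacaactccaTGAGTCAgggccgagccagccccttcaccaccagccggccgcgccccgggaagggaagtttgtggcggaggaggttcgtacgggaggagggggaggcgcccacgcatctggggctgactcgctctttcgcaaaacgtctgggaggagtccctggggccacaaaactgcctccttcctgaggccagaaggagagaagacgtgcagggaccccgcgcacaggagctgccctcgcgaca
SERPINB2, chr18:63887455-63887754, plus strand: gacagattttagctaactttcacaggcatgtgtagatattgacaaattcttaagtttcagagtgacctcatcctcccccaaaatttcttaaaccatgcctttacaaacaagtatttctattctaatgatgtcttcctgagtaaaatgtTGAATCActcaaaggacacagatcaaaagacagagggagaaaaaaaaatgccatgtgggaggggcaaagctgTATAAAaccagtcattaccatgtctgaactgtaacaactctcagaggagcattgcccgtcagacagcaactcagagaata
ANXA2, chr15:60397937-60398236, minus strand: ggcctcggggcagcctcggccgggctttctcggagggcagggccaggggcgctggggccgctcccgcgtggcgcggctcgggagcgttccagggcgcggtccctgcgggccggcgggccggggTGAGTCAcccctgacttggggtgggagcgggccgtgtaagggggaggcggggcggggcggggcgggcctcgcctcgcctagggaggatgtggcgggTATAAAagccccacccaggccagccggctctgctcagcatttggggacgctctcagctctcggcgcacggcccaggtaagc

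The AP-1 letters stood in 3 of the 8 windows, beginning at -186 from the start in PLAUR, -102 in SERPINB2 and -127 in ANXA2. Among all 35116 RefSeq windows of the same length, 7.71% held them. One of the 3 genes is SERPINB2, which rose 2.04-fold, and the others are ANXA2, at 1.07-fold, and PLAUR, which was not called. The TATA letters stood in the SERPINB2 window at -30 and in the ANXA2 window at -31, and in 11.5% of all windows. Of the transcript starts that GENCODE lists, the PLAU window held 3 of 5 and the ANXA2 window held 28 of 38. The PLAUR window held 6 of 16 and the SERPINB2 window 2 of 6, so other listed starts of these genes lay outside. The PLAU window had neither the AP-1 nor the TATA letters but had 3 GC boxes, at -66, -51 and -40. GC boxes also stood in the windows of S100A10, SERPINE2 and ANXA2 and in 45.0% of all windows. The NF-kB consensus was in 0 of the 8 windows and in 5.91% of all windows. A match here is a description of letters, not a site, and nothing follows about a factor from a window that lacks it. Any relation between these letters and the changes in level was not tested.

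Compared per kilobase of merged exons, the 7 genes kept the same order of level in both groups. In PBS it ran from ANXA2 at 229 CPM per kilobase through PLAU (161), S100A10 (71.5), PLAUR (29.7), PLAT (2.95) and SERPINE2 (1.83) to SERPINB2 (0.437), and no neighbours in that order overlapped. In ADC, ANXA2 at 245 and PLAU at 234 CPM per kilobase overlapped, and the other neighbours did not: S100A10 stood at 91.6, PLAUR at 30.5, PLAT at 8.34, SERPINE2 at 2.19 and SERPINB2 at 0.893. The gain in level was 73.0 CPM per kilobase for PLAU, 20.2 for S100A10, 15.6 for ANXA2 and 5.39 for PLAT, so among the 7 PLAT led by fold and PLAU by amount on this scale. The choice of length changes both orders: with the median length of coding transcripts instead, chosen after seeing the data, ANXA2 stood at 3024 CPM per kilobase in PBS, PLAUR (178) came before S100A10 (121), and the gain of ANXA2 (206) passed that of PLAU (92.8).

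The balance between activators and the 2 inhibitors is given as ratios of CPM per kilobase within a library, with no test. The size of each ratio depends on the length taken for each gene, and its fold change between groups does not. PLAT to SERPINE2 went from 1.63 ± 0.295 in PBS to 3.81 ± 0.338 in ADC (SD, n = 5), and the groups did not overlap (1.36 to 1.96 against 3.38 to 4.30). PLAU to SERPINE2 was 89.3 ± 11.9 in PBS and 107 ± 6.81 in ADC, with overlap, PBS replicate 1 reaching 109. PLAU to SERPINB2 was 427 ± 196 in PBS and 279 ± 87.3 in ADC, also with overlap. The 2 activators shifted against each other: PLAU to PLAT, a ratio added after seeing the data, fell from 55.2 ± 5.19 to 28.2 ± 1.90 without overlap. Leaving out any 1 library kept the sign of each of the 6 ratio differences. The log2 difference of PLAU to SERPINB2 depended most on single libraries, at -0.55 with all, -0.33 without PBS replicate 2 and -0.72 without ADC replicate 4.

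**Figure D3:**
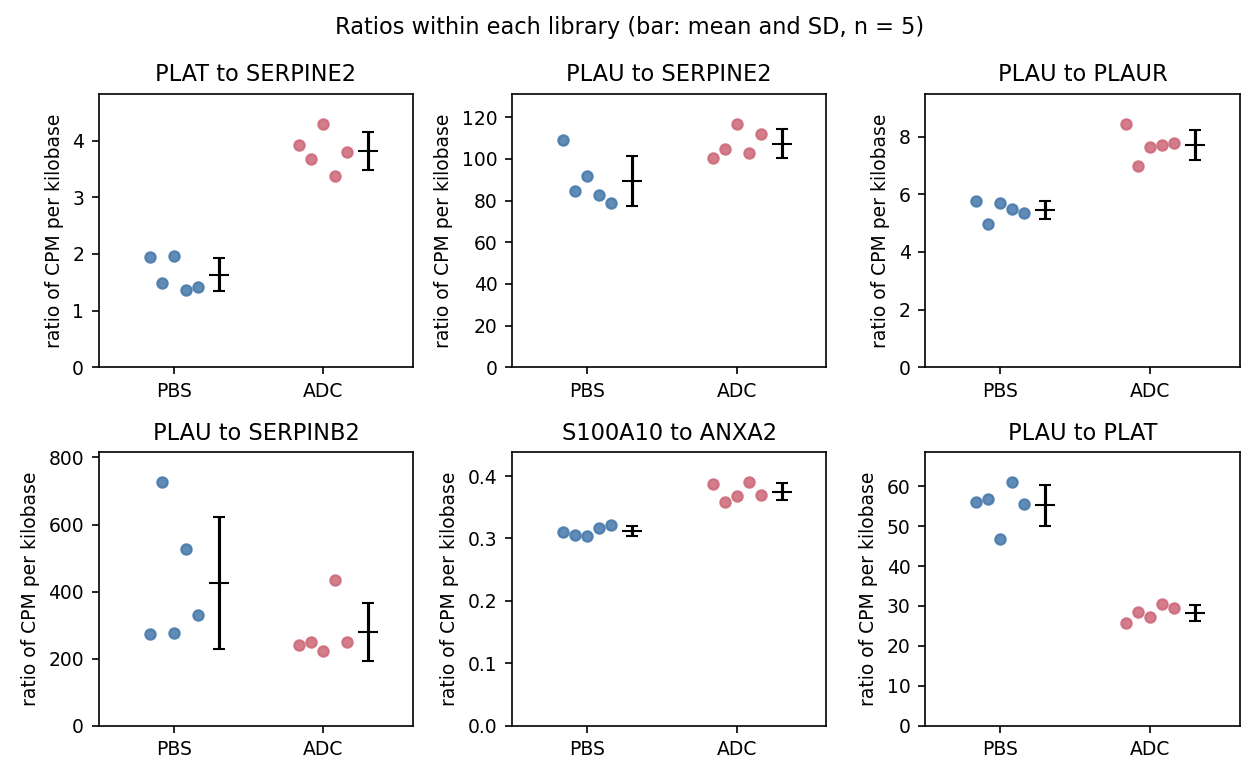
Ratios of 2 genes within each library (vertical axes, ratio of CPM per kilobase, from 0) for 5 PBS and 5 ADC libraries, with mean and SD. PLAT to SERPINE2, PLAU to PLAUR, S100A10 to ANXA2 and PLAU to PLAT separate the groups, and the ratios of PLAU to SERPINE2 and to SERPINB2 overlap.

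Other genes of the pathway were taken from lists by role, and each count stands against the 20.8% called among all genes. The transcript of the substrate was not detected: PLG, which encodes plasminogen, had 0 counts in all libraries. Plasminogen protein was not measured. Of 9 genes for plasminogen and proteases that can activate its activators, 3 were tested, and the lysosomal cathepsins CTSB (log2 fold change 0.19, SE 0.03, adjusted p = 1.1e-05) and CTSL (0.17, SE 0.05, adjusted p = 0.0076) rose, with a list median of 0.17. Of 11 other named inhibitors of activators or plasmin, 4 were tested and 1 rose: TFPI2, a Kunitz-type inhibitor of plasmin kept in the matrix, went from 43.7 to 68.8 CPM (0.66, SE 0.04, adjusted p = 2.1e-12). That list's median was 0.48, and its other tested genes SERPINI1, SPINT1 and SPINT2 were each below 1.5 CPM in both groups.

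Among 14 receptors and binding proteins for plasminogen or the activators, 10 were tested, 2 rose and 0 fell, with a median of 0.12, a share of 20% that is near the background. LRP1, which takes up complexes of activators with serpins, rose from 25.9 ± 2.04 to 39.6 ± 5.32 CPM (log2 fold change 0.61, SE 0.08, adjusted p = 4.3e-07). MRC2, the uPAR-associated collagen receptor, rose from 88.7 to 112 CPM (0.33, SE 0.04, adjusted p = 6.8e-07). The plasminogen receptors ENO1 (-0.02, adjusted p = 0.72) and PLGRKT (0.06, adjusted p = 0.6) were not called, nor were the endocytic receptors VLDLR (0.49, adjusted p = 0.072), LRP8 (0.19, adjusted p = 0.052) and IGF2R (-0.01, adjusted p = 0.89). Among 12 genes for proteins that signal beside uPAR, 7 were tested, 4 rose and 0 fell, with a median of 0.19: the growth factor receptor PDGFRB (1.12, from 3.81 to 8.32 CPM), and the integrin subunits ITGA3 (0.24), ITGB5 (0.20) and ITGAV (0.19). ITGB1 and ITGA5, at 0.03 and 0.01, and EGFR, at -0.10 (adjusted p = 0.072), were not called.

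Of 15 genes for substrates of plasmin, 8 were tested, with a median of 0.16. The latent TGF-beta binding protein gene LTBP1 (0.40, SE 0.04) and the laminin chain LAMC1 (0.22, SE 0.03) rose, while the matrix glycoprotein thrombospondin (THBS1) fell from 1052 to 809 CPM (-0.38, SE 0.03, adjusted p = 5.2e-11). No call was made for the fibronectin gene FN1, with means of 3811 CPM in PBS and 3705 in ADC (adjusted p = 0.41). Among 17 genes of coagulation at the cell surface, 11 were tested, 4 rose and 1 fell, with a median of 0.13. TFPI, the inhibitor of the tissue factor pathway, rose by 0.52 (SE 0.07), the protease-activated receptors F2RL1 and F2R by 0.39 and 0.28, and tissue factor (F3) by 0.31 (adjusted p = 0.024). The carboxylase gene GGCX fell by 0.15. The call for F3 was lost without PBS replicate 2, 3 or 5 or ADC replicate 3 or 5 (adjusted p from 0.051 to 0.074), and that for GGCX without ADC replicate 4 (adjusted p = 0.056).

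Relatives of the 7 genes were counted by family. Of 19 further serpins, 9 were tested, 4 rose and 2 fell, with a median of 0.11: SERPINF1, the gene of pigment epithelium-derived factor, rose from 4.70 to 9.77 CPM (1.05, SE 0.12), SERPINA1 by 0.63, SERPINB1 by 0.39 and SERPINB6 by 0.25, while SERPINB7 (-0.47) and the collagen chaperone SERPINH1 (-0.12) fell. Leaving out PBS replicate 5 ended the call for SERPINB7 (adjusted p = 0.12), as did leaving out ADC replicate 1 (0.074), 3 (0.088) or 4 (0.053). SERPINH1 lost it with library size alone (adjusted p = 0.068) and without PBS replicate 2 (0.086), 4 (0.051) or 5 (0.058) or ADC replicate 2 (0.084), 3 (0.06) or 4 (0.094). Of 12 other annexins, 9 were tested, with a median of 0.08, and ANXA4 (0.24), ANXA1 (0.16) and ANXA6 (0.13) rose. Of 18 other S100 genes, 8 were tested, with a median of 0.39, and 3 rose: S100A4, another annexin A2 partner, from 1.15 to 4.04 CPM (1.81, SE 0.22, adjusted p = 2.3e-07), S100A3 (0.81) and S100A6, from 220.3 to 311 CPM (0.50, SE 0.04, adjusted p = 1.5e-11). Of 16 other genes with the LY6/uPAR fold of PLAUR, 6 were tested, with a median of -0.15, and LY6K fell by 0.15 (adjusted p = 0.0099).

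**Figure D4:**
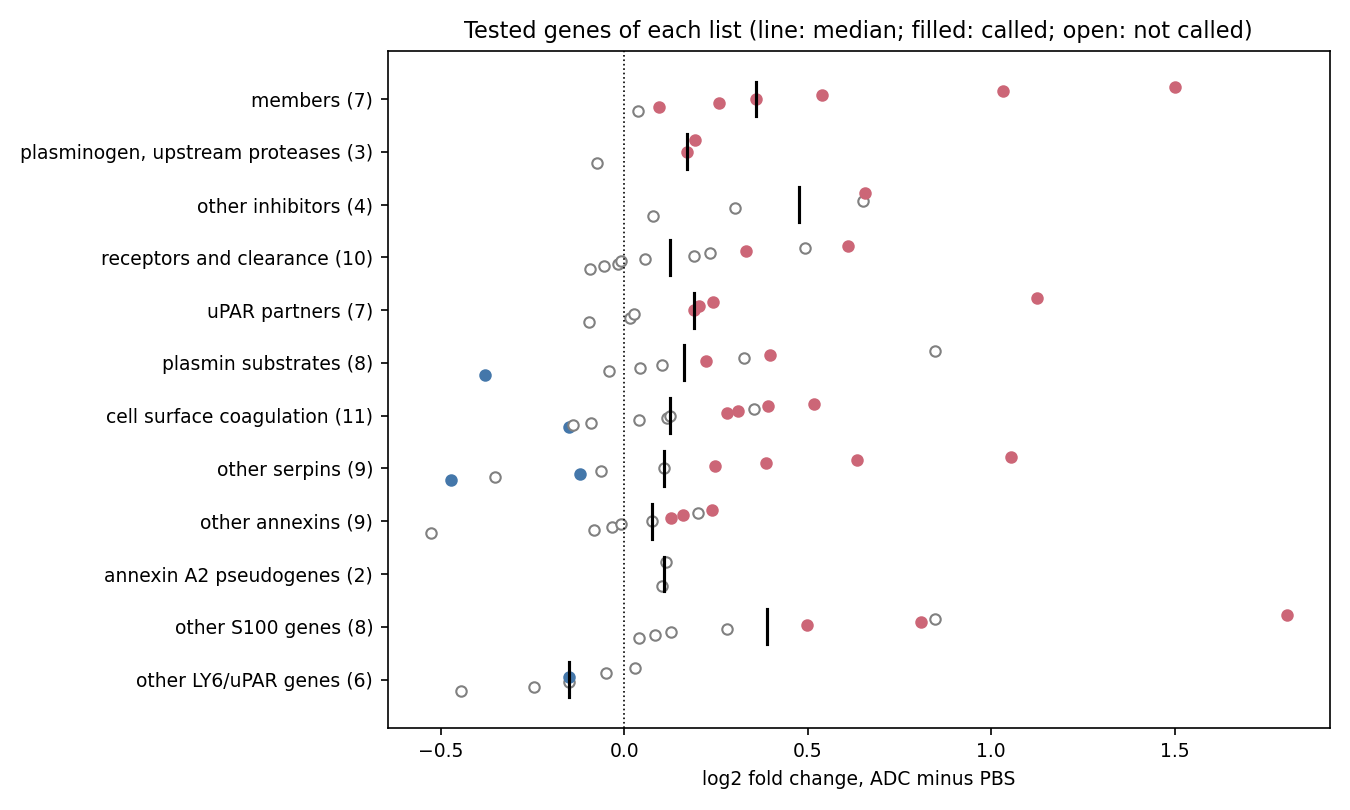
Log2 fold change (ADC minus PBS, horizontal axis) of every tested gene of each list, with the number tested in brackets, filled points for called genes, open points for the rest and a line at the median. The 7 genes have 6 filled points, all to the right of 0, and the lists of substrates, coagulation, serpins and LY6/uPAR genes hold filled points to the left.

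The genes whose pattern over the 10 libraries was most like that of PLAT were sought among 9714 protein-coding genes. Each had a mean of at least 5 CPM in PBS, in ADC or in both, and any gene not reported here was left out. Likeness was the root mean square difference of log2 CPM after centring each gene. The closest was CEBPD, a C/EBP transcription factor, at 0.116 on the log2 scale, where PLAT itself had a spread of 0.759. It went from 9.34 to 25.6 CPM. The next were the neutrophil chemokine CXCL8 (0.151, from 31.3 to 79.8 CPM), the small GTPase gene RRAD (0.156), the cholesterol exporter ABCA1 (0.180) and the granulocyte growth factor CSF3 (0.192, from 37.6 to 87.1 CPM). These values describe likeness in libraries of 2 groups, so any gene with a similar fold change is near PLAT by construction.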

How the data were processed

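For each gene and each of 10 libraries the authors deposited a whole-number count, made from poly(A)-selected RNA, with a deposited length per gene in bases (another measure, equal to the merged exons of GENCODE release 29 for the 7 genes). The submitters' processing notes name HISAT2, HISAT, TopHat2 and hg38 with no role. Which tool counted the reads, with which strand setting and annotation release, is not given in the sources used here. Between 65.4% and 67.3% of counts in the range 2 to 21 were even, so both mates of a pair may have been counted. No library repeated another of its group: over genes with 20 or more counts in a pair, chi-square divided by its degrees of freedom was 5.18 to 16.5.

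Groups came from the treatment labels, and 0 sample columns were unmapped. Counts were scaled by TMM (factors 0.979 to 1.02) and filtered with filterByExpr (minimum count 10, minimum total 15), which kept 14504 genes. ADC was compared with PBS with edgeR 4.0.16 in R 4.3.3 (quasi-likelihood, two-sided), adjusted by Benjamini-Hochberg over all of them, with a threshold of 0.05. SE is the absolute log2 fold change over the square root of F. Alternatives were DESeq2 1.42.0, limma-voom (limma 3.58.1), other scalings and filters, halved counts, a replicate block and leaving out each library. Deviations of same-numbered libraries of the 2 groups showed little correlation (-0.00717 to 0.0404).

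The 7 genes and the lists were chosen with earlier results of these data known. The text names all 7, PLG and LRP1, in each list the 3 called genes with the smallest adjusted p in each direction and all called genes in a direction where 5 or fewer were called there, and the 5 genes closest to PLAT. One gene that the rule names is not reported here. Uncalled genes, marker genes and untested examples named beside them were chosen after their values were seen.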

Additional observations from a re-analysis of the deposited data

Results flagged for a closer look

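Of the 14 sets of 5 values checked (7 genes in 2 groups), 1 held a library far from the others. For SERPINB2 in ADC, replicate 4 was at 1.44 CPM, the next at 2.49 and the median at 2.73, so the gap was 0.749 of the group's range, against a Dixon critical value of 0.71 for 5 samples. Chance alone marks about 1 in 20 such sets. Without that library the log2 fold change of SERPINB2 was 1.18 (edgeR adjusted p = 0.0018), against 1.03 with it.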

How the results depend on the processing

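The count of called genes among the 7 was 6 under each of the 8 alternatives that kept all libraries, and 4 to 6 when 1 library was left out. PLAT, PLAU, SERPINB2 and S100A10 kept their calls under all 18 alternatives, with log2 fold changes of 1.45 to 1.56, 0.52 to 0.56, 0.87 to 1.18 and 0.34 to 0.38, and PLAUR was called under none (0.02 to 0.08). SERPINE2 ranged from 0.19 to 0.30 and lost its call under 3, and ANXA2 ranged from 0.07 to 0.13 and lost it under 7, each by leaving out 1 library. Over all genes, leaving out 1 library gave 2491 to 2980 calls against 3018, and DESeq2 gave 3344. With the replicate number as a replicate block 3152 genes were called. Same-numbered libraries correlated between -0.00717 and 0.0404, and 1 of 10 correlated best with its own number. The labels do not say what a number shares, and these correlations over all genes cannot settle it. Of 32 called list and marker genes, 27 kept their calls under every alternative. Of the markers, CDH2 lost its call (log2 fold change -0.12) with library size alone (adjusted p = 0.061) and without PBS replicate 1 (0.053). SERPINB2, with 21 to 97 counts per library, is the gene with the fewest counts of the 7.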
